A study of Mus musculus with 6 samples.

Results

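Interleukins of the IL-17, IL-22 and IL-20 families and their epithelial receptors were followed in imiquimod-treated mouse ear skin through 10 genes, taken by symbol from the 23518 rows of the deposited table. They are the cytokine genes Il23a, Il17a, Il17f, Il22, Il19 and Il24 and the receptor genes Il17ra, Il17rc, Il22ra1 and Il20rb, and each had a row. The 3 HdR libraries come from mice labelled HdR, which the series' design text gives as HOIL1 without its RING1 domain, and the 3 WT libraries from wild-type mice. HOIL1 is a subunit of the linear ubiquitin chain assembly complex. Both genotypes received 10 mg of a cream with 5% imiquimod, a Toll-like receptor agonist, on the ear and were sampled at day 1, so skin without imiquimod is not part of the comparison. The labels give no strain, age or sex, and they do not say whether each library is a separate mouse, so p-values measure the spread between these libraries.

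In psoriasis and in imiquimod-treated skin, dendritic cells and macrophages make IL-23, which keeps gamma delta T cells and other lymphocytes producing IL-17A, IL-17F and IL-22. Keratinocytes receive IL-17A and IL-17F through a receptor of IL17RA and IL17RC chains, and IL-22 through IL22RA1 paired with IL10RB. IL-19 and IL-24, made largely by keratinocytes and myeloid cells, act through receptors that contain IL20RB, and IL22RA1 also serves IL-24. Downstream, these receptors raise chemokines, antimicrobial peptides and stress keratins in the epidermis.

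Levels below are coverage, the bases aligned to a gene per Mb of aligned sequence after scaling between libraries. Changes are log2(value + 1) in HdR minus the same in WT, a scale that makes the change of low genes look smaller than it is, and adjusted p values are limma's after Benjamini-Hochberg correction. The libraries held 4433 to 5264 Mb in HdR and 5038 to 5966 Mb in WT, so that 1 read pair of 300 bases is worth 0.0612 to 0.0855 bases per Mb in HdR and 0.0423 to 0.0521 in WT. A filter of 1 base per Mb, to be reached by 3 or more libraries, left 15049 genes to test. Of these, 30.6% passed an adjusted p of 0.05, 12.7% higher and 17.9% lower in HdR, and in 51.5% the values of the genotypes did not overlap. Across tested genes the median change was -0.13. Scaling by total bases made it -0.41, with 17.6% of calls higher against 41.3% here, and it was -0.01 with quantile normalisation (53.1% of calls higher). The share of bases on Rn45s, a ribosomal RNA precursor, ran from 0.368% to 1.54% in HdR and from 0.102% to 0.119% in WT. Its part in the changes was not tested. Transcript length also moved with genotype across all genes. The median change was 0.64 among the shortest 10% of transcripts and -0.58 among the longest, and the slope on length was lowest in HdR replicate 2, at -0.27 per doubling of length, and highest in WT replicate 3, at 0.25. The libraries carry the markers of their tissue, with Krt14, a keratin of basal keratinocytes, averaging 2453 ± 305 in HdR and 4006 ± 491 in WT (SD, n = 3 each).

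Of the 10 genes, 5 passed the filter. The receptor genes Il17rc, Il22ra1 and Il17ra were lower in HdR and passed the test, Il20rb and Il19 did not pass, and no gene of the 10 was called higher (limma, 1 at an unadjusted p under 0.05, Il19). The other 5 are cytokine genes under the filter. Il17a, Il17f, Il22 and Il24 averaged less than 1 base per Mb in both genotypes and are near zero, and Il23a reached 1 base per Mb in 2 HdR libraries. The genotypes did not overlap in 8 of the 10 genes, with HdR higher in 5 and lower in 3, where 20.9% of all tested genes were apart with HdR higher and 30.7% with HdR lower. The 5 higher genes are Il23a, Il17a, Il22, Il24 and Il19, of which Il19 alone was tested, so that count is not read against those shares.

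Il23a (ENSMUSG00000025383.2, GRCm38 chromosome 10, 128296139 to 128298752, minus strand) encodes the subunit that is particular to IL-23. Its coverage was 0.917, 1.41 and 1.99 bases per Mb in HdR replicates 1, 2 and 3 and 0.103, 0.155 and 0.0847 in WT replicates 1, 2 and 3. In read pairs this is 14.98, 16.5 and 28.8 in HdR and 2, 2.97 and 2 in WT, so every HdR library lay well above every WT library (exact two-sided permutation p = 0.1, and 3 against 3 libraries can give none smaller). HdR replicate 1, at 0.917, kept the gene under the filter. In the fit without a filter Il23a was 1.11 higher on the log2 scale (SE 0.18, limma adjusted p = 0.0327), where 4.37% of 23289 genes were higher. With a filter at 0.5 bases per Mb, chosen after seeing the data, the adjusted p was 0.0103 (limma), where 12.5% of 16117 genes were higher. The genes of that filter were then kept fixed while each library was left out in turn. The limma adjusted p lay between 0.00749 and 0.0497, nearest the threshold without WT replicate 1. The change was 0.87 with the length trend removed (limma adjusted p = 0.0288). With a pseudocount of 0.1 in place of 1 it was 2.80. The gene reaches 1 or 0.5 bases per Mb only in HdR libraries. Without any 1 of these it would lie under both filters, so the fits with a library left out are not counted as support.

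The partner subunit of IL-23 is encoded by Il12b, which read 4.66, 4.87 and 3.24 in HdR and 2.39, 2.68 and 0.423 in WT, without overlap. Its change of 1.00 (95% interval 0.20 to 1.79) did not pass (limma adjusted p = 0.0574), and it passed with the replicate number as a block (limma adjusted p = 0.0108). Of 20 markers of the cells known to make IL-23, 11 rose and 9 did not pass, where 12.7% of all tested genes were higher. Of 10 dendritic and Langerhans cell markers 5 rose, led by the lectin gene Mgl2 (65.8 ± 4.01 in HdR and 33.1 ± 1.71 in WT), and Cd209a, Flt3, Cd83 and Cd207 followed, while the changes of Itgax and Xcr1 were -0.20 and -0.09. With the length trend removed Cd207 changed by 0.33 and was not called (limma adjusted p = 0.154), and Itgax and Xcr1 changed by 0.09 and 0.25. The summed coverage of that list ran from 178 to 234 in HdR and from 97.4 to 136 in WT. Among 10 monocyte and macrophage markers 6 rose, led by the scavenger receptor gene Cd163 (41.8 ± 6.94 in HdR and 14.8 ± 2.52 in WT), while Ly6c2 and Fcgr1 changed by -0.44 and -0.11, and the sum ran from 2270 to 2574 in HdR and from 732 to 1502 in WT. No marker of either list was at 0 in all libraries. Without WT replicate 1 the counts were 1 and 2, without WT replicate 3 they were 3 and 3, without HdR replicate 1 they were 3 and 3, without HdR replicate 2 the dendritic count was 2, and without HdR replicate 3 the macrophage count was 4. With total scaling, and without a filter, both counts were 3. The part of these cells in the Il23a values was not tested. In bulk skin, more cells of a type and more RNA per cell cannot be told apart.

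**Figure D1:**
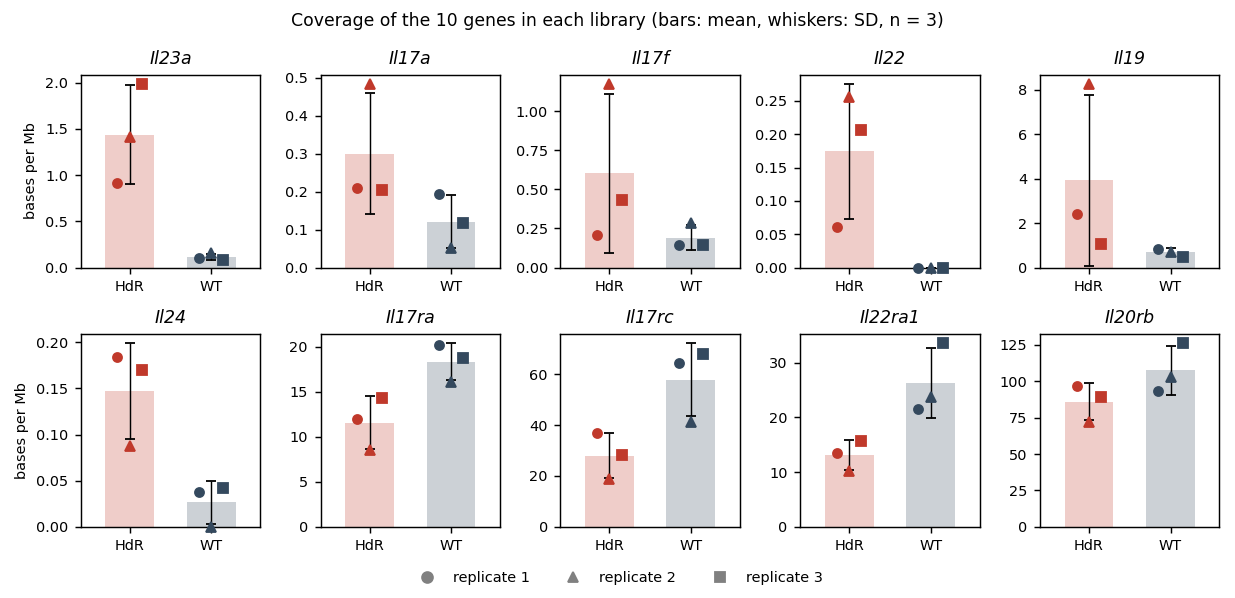
Coverage in bases per Mb (vertical axes, each from 0) of the 10 genes in HdR and WT libraries, with bars for means, whiskers for SD (n = 3 each) and a marker shape per replicate number. The 3 Il23a values in HdR (0.917 to 1.99) lie above those in WT (0.0847 to 0.155), and Il17ra, Il17rc and Il22ra1 are lower in all HdR libraries, while Il17a, Il17f, Il22 and Il24 stay near zero.

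Il17a and Il17f, the cytokine genes that give IL-17 its name in psoriasis, lie side by side on chromosome 1 (Il17a, ENSMUSG00000025929.4, 20730905 to 20734496, plus strand, and Il17f, ENSMUSG00000041872.9, 20777146 to 20790617, minus strand, GRCm38). Il17a had 1032, 1700 and 892 bases in HdR replicates 1, 2 and 3 and 1123, 300 and 840 in WT replicates 1, 2 and 3, which is 2.97 to 5.67 read pairs in HdR and 1 to 3.74 in WT. Scaled to bases per Mb, the values were 0.211, 0.484 and 0.205 in HdR and 0.193, 0.0521 and 0.119 in WT, so the genotypes were separated by 0.205 against 0.193 and only after scaling. Il17f had 0.206, 1.17 and 0.429 bases per Mb in HdR and 0.147, 0.285 and 0.142 in WT, and the genotypes overlapped (exact permutation p = 0.2, two-sided). HdR replicate 2 held the highest value of both genes. Without a filter the changes were 0.21 for Il17a (95% interval -0.03 to 0.45, limma adjusted p = 0.185) and 0.38 for Il17f (95% interval -0.12 to 0.89, limma adjusted p = 0.236). At 1 to 13.7 read pairs a library, no difference of either gene was detected.

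Il22 (ENSMUSG00000074695.3, GRCm38 chromosome 10, 118204942 to 118210047, plus strand) was listed at 0 in all WT libraries and had 300, 900 and 896 bases in HdR replicates 1, 2 and 3, or 1, 3 and 2.99 read pairs. Its near copy Iltifb, on the same chromosome (118289629 to 118295038, minus strand), was also listed at 0 in all WT libraries and had 0, 450 and 750 bases in HdR. The longest protein-coding transcripts of these genes were identical at 97.4% of aligned bases (1081 identical, 29 mismatched), so reads of the pair can be split between them and the Il22 value alone is uncertain. Their whole promoter windows of 300 bases were less alike, identical at 75% of aligned bases (195 identical, 65 mismatched, 80 gap bases). A stretch of 102 bases around their starts is shown from these RefSeq windows of GRCm38.p6, 5′ to 3′ on each gene's strand. It was chosen as their best match without gaps, so its likeness does not hold for the whole windows. Capitals mark the 4 mismatched bases.
Il22, chr10:118204885-118204986, plus strand: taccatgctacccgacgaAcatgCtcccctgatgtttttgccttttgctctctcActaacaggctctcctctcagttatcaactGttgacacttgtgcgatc
Iltifb, chr10:118294994-118295095, minus strand: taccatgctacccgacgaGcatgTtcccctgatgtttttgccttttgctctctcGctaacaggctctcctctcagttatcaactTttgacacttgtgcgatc
Summed, the pair held 300, 1350 and 1646 bases in HdR replicates 1, 2 and 3 and 0 in each WT library. Il22 passed no test across genes (without a filter, change 0.23, limma adjusted p = 0.0693), and no fold is given between so few read pairs and 0.

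Il23r, the receptor gene of IL-23, was low. Of the tested markers of IL-17-producing lymphocytes 27.3% passed the test, beside 30.6% of all tested genes. Il23r read 0.604, 1.02 and 0.695 in HdR and 0.519, 0.547 and 0.716 in WT, under the filter. Of 17 lymphocyte markers 14 had a row and 11 were tested, with Ccr6, Blk and 5830411N06Rik under the filter, and the gamma delta T cell receptor genes Trdc, Tcrg-C1 and Tcrg-C2 were not analysed here. Il7r, the IL-7 receptor gene of lymphocytes, rose (32.2 ± 7.65 in HdR and 16.1 ± 5.60 in WT, limma adjusted p = 0.0258), and was not called with total scaling or without a filter (limma adjusted p = 0.0657 and 0.0626). Sox13, a transcription factor gene of gamma delta T cells, fell (1.07 ± 0.211 in HdR and 4.64 ± 2.30 in WT, limma adjusted p = 0.0181). Rora fell by 0.76 and, on a transcript of 10.9 kb, changed by -0.18 with the length trend removed (limma adjusted p = 0.437). Cd3d, of the T cell receptor complex, did not pass (change 0.61, limma adjusted p = 0.162, and 0.0275 with the replicate block). Cd163l1 did not pass either (0.44, limma adjusted p = 0.135), though its HdR values (2.88 to 3.69) lay above those in WT (1.54 to 2.85). The untested 5830411N06Rik was also higher without overlap (0.890 to 1.07 in HdR and 0.666 to 0.810 in WT), so these markers moved both ways. The summed list ran from 491 to 570 in HdR and from 674 to 689 in WT, and no marker was at 0 in all libraries. Rora alone held 192 to 285 of these sums in HdR and 387 to 456 in WT. Leaving out HdR replicate 2, WT replicate 1 or WT replicate 3 left limma with 0 calls among these markers (3, 3 and 4 at an unadjusted p under 0.05). Il7r was not called without HdR replicate 1, and 3 markers rose without WT replicate 2.

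Il19 and Il24, cytokine genes of the IL-20 family, share a stretch of chromosome 1 with Il20 and Il10 (Il24, ENSMUSG00000026420.16, 130882074 to 130887454, and Il19, ENSMUSG00000016524.12, 130932656 to 130940115, both on the minus strand of GRCm38). Il19 read 2.41, 8.27 and 1.07 in HdR replicates 1, 2 and 3 and 0.843, 0.704 and 0.486 in WT, so the genotypes did not overlap, but HdR replicate 3 lay close to WT replicate 1 and HdR replicate 2 far above the rest. Its change of 1.27 (SE 0.46, 95% interval 0.24 to 2.31) did not pass (limma adjusted p = 0.0617). All WT values lay under the filter, which Il19 passed only through its HdR libraries, and without any 1 of these it was not tested. The call depended on the setting. With the replicate block the adjusted p was 0.0227 (limma), and with a pseudocount of 0.1 the change was 1.93 with an adjusted p of 0.0455 (limma). The length trend took the change of this 1.14 kb transcript to 0.82 (limma adjusted p = 0.171, and 0.128 with the block). On the genes of the filter at 0.5 bases per Mb, leaving out HdR replicate 2 gave 0.68 (limma adjusted p = 0.10) and leaving out HdR replicate 3 gave 1.75 (limma adjusted p = 0.0242).

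The window of 250 bases before and 50 after the start of Il19 is shown because Il19 was the cytokine gene with the highest coverage of the 10. Capitals mark matches on either strand to GGGA followed by any 4 bases and CC, the NF-kB motif, and to TTCNNNGAA, the STAT motif (RefSeq, GRCm38.p6). The NF-kB motif is held by 20.7% and the STAT motif by 8.30% of all 32851 promoter windows of this length, and a match is a description of the letters only.
Il19, chr1:130940066-130940365, minus strand: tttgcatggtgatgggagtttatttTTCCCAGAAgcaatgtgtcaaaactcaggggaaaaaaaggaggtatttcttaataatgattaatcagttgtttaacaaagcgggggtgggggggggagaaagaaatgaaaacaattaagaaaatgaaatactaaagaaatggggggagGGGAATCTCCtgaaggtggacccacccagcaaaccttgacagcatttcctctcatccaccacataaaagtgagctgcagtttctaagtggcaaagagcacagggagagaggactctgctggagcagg
The NF-kB match starts 77 bases before the transcript start and the STAT match 225 bases before it.

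Il24 was near zero, with 900, 309 and 741 bases in HdR replicates 1, 2 and 3 and 218, 0 and 300 in WT, or 1.03 to 3 read pairs in HdR and 0 to 1 in WT. Scaled, all HdR values (0.0881 to 0.184 bases per Mb) lay above all WT values (0 to 0.0423). No overlap with HdR higher was held by 19.3% of the 8240 genes under the filter. Between Il24 and Il19 lies Il20, which read 0, 0.610 and 1.11 in HdR and 0.0516, 0.111 and 0.0423 in WT, with overlap. Il10, the anti-inflammatory cytokine gene of the same cluster, rose, alone among the tested ligands, with 17.9, 27.0 and 11.5 in HdR and 4.96, 10.1 and 2.27 in WT (change 1.64, SE 0.44, limma adjusted p = 0.0260; 1.26 and 0.0455 with the length trend removed). Without HdR replicate 1, HdR replicate 2, WT replicate 1 or WT replicate 3, and in the fit without a filter, Il10 was not called. The genes on either side of the 4 cytokines showed no call, Fcmr being near zero and Mapkapk2, a kinase gene, reading 85.8 ± 20.0 in HdR and 109 ± 13.0 in WT (limma adjusted p = 0.186).

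The other IL-17 ligands were low in both genotypes. Il17d read 3.14 ± 0.392 in HdR and 3.12 ± 0.369 in WT (change 0.01, 95% interval -0.40 to 0.42, limma adjusted p = 0.979), and its sign turned with total scaling and with the length trend removed. Il17c, the epithelial IL-17 ligand, read 0.170, 1.19 and 1.06 in HdR and 0.570, 0.205 and 0.163 in WT. Il17b ran from 0.174 to 1.11 in HdR and from 0.0923 to 0.264 in WT, and Il25 from 0.0257 to 0.283 in HdR and from 0 to 0.155 in WT, all with overlap and under the filter.

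The epithelial receptors carried far more coverage than their ligands, and 3 of the 4 were lower in HdR. Il17rc (ENSMUSG00000030281.16, GRCm38 chromosome 6, 113471427 to 113483140, plus strand), the chain that pairs with IL17RA for IL-17A and IL-17F, read 36.7, 19.0 and 28.3 in HdR replicates 1, 2 and 3 and 64.4, 41.4 and 67.8 in WT. Every HdR value lay under every WT value, with the lowest value of each genotype in replicate 2. The change was -1.04 (SE 0.27, 95% interval -1.65 to -0.43, limma adjusted p = 0.0244).

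Il22ra1 (ENSMUSG00000037157.8, GRCm38 chromosome 4, 135728172 to 135752140, plus strand), the IL-22 receptor chain that also serves IL-24, read 13.5, 10.1 and 15.7 in HdR and 21.5, 23.7 and 33.6 in WT. The genotypes did not overlap, and the change was -0.94 (SE 0.23, 95% interval -1.45 to -0.43, limma adjusted p = 0.0195). Il17ra (ENSMUSG00000002897.5, GRCm38 chromosome 6, 120463247 to 120487559, plus strand), the chain shared by the receptors of several IL-17 ligands, read 11.9, 8.50 and 14.3 in HdR and 20.1, 16.1 and 18.8 in WT. It did not overlap either, and its change was -0.64 (SE 0.21, 95% interval -1.12 to -0.16, limma adjusted p = 0.0473).

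Il20rb (ENSMUSG00000044244.18, GRCm38 chromosome 9, 100457719 to 100486788, minus strand), the common chain for IL-19 and IL-24, read 97.0, 72.1 and 89.0 in HdR and 93.4, 103 and 126 in WT. The genotypes overlapped through HdR replicate 1, and the change of -0.32 (95% interval -0.72 to 0.09) did not pass (limma adjusted p = 0.195).

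The receptors differ in transcript length, which bears on these changes. Il17ra has a longest transcript of 7.75 kb, in the longest 10% of tested genes, whose median change was -0.58. With the length trend removed its change was -0.12 and did not pass (limma adjusted p = 0.621, and 0.599 with the replicate block). Il17rc and Il22ra1, at 2.30 and 2.57 kb, sit among lengths with median changes of 0.13 and -0.01. Their changes with the length trend removed were -1.10 (limma adjusted p = 0.0282) and -0.93 (limma adjusted p = 0.0247). Single libraries also decided the calls. Without HdR replicate 2, WT replicate 1 or WT replicate 3, limma called 0 of the 10 genes lower (3, 2 and 3 at an unadjusted p under 0.05), and without HdR replicate 1 Il17ra was not called. All receptor changes kept their sign when a library was left out, from -1.25 to -0.79 for Il17rc, from -1.08 to -0.75 for Il22ra1 and from -0.80 to -0.46 for Il17ra. In the fit without a filter the adjusted p was 0.0626 for Il17rc, 0.0505 for Il22ra1 and 0.0828 for Il17ra (limma), and Il17ra was not called with median-of-ratios scaling (adjusted p = 0.0533) or quantile normalisation (adjusted p = 0.0989).

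**Figure D2:**
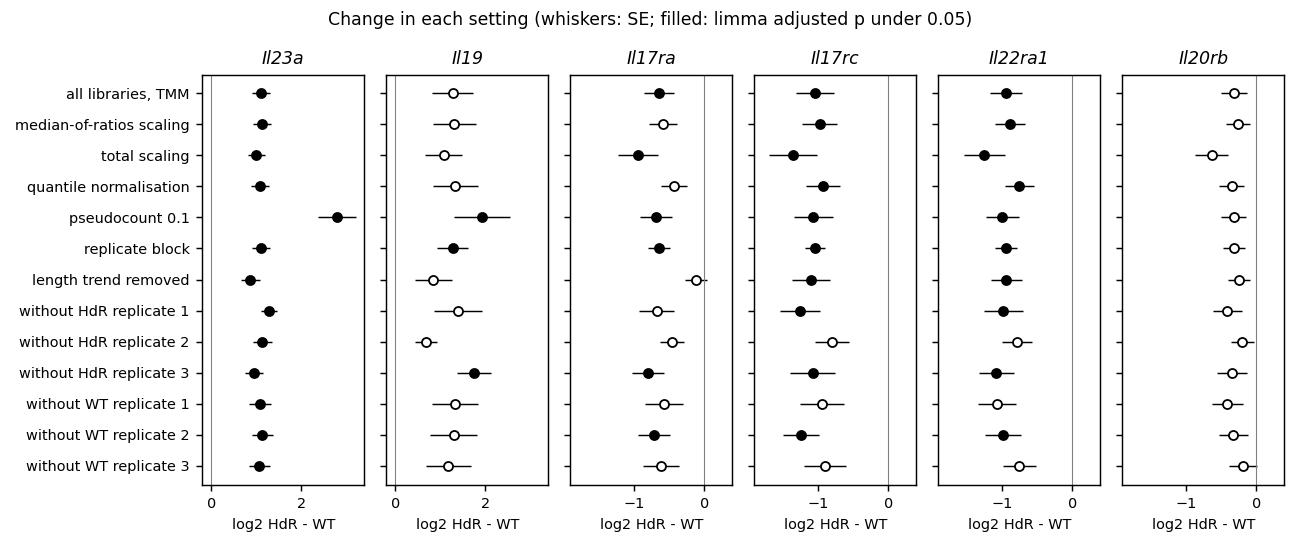
Log2 change, HdR minus WT (horizontal axes), of 6 of the genes in each processing setting, with whiskers for SE and filled points for a limma adjusted p under 0.05. Il23a and Il19 are shown on the genes of the filter at 0.5 bases per Mb, and the signs stay as in the top row throughout, with Il17ra close to 0 at -0.12 when the length trend is removed.

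**Figure D3:**
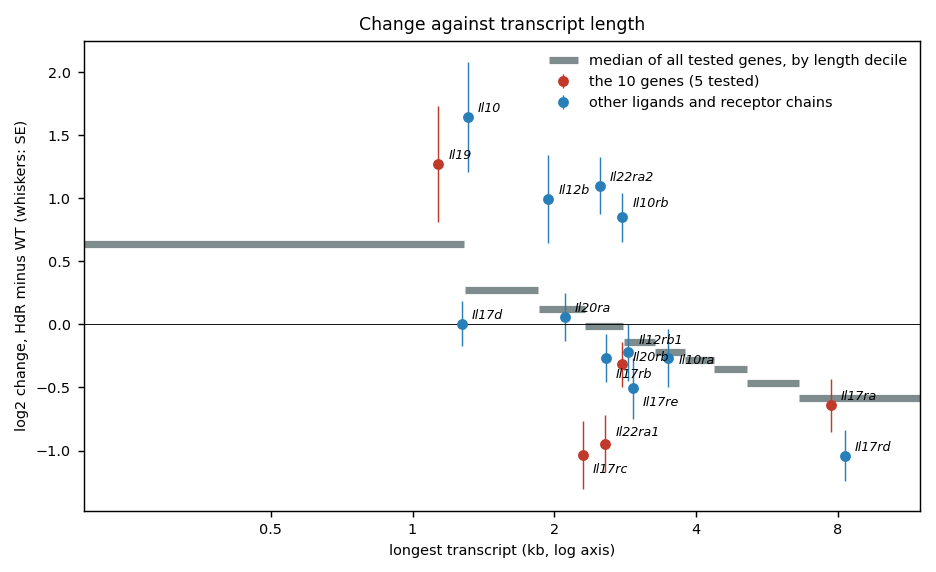
Log2 change, HdR minus WT (vertical axis, whiskers for SE), against the longest transcript in kb (log axis) for 5 of the 10 genes in red and the other tested ligands and receptor chains in blue, over the median of all tested genes in each length decile in grey. Il17ra lies on the grey trend, and Il17rc and Il22ra1 lie below it, at -1.04 and -0.94.

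The promoter windows of both receptor genes that kept their call after the length trend was removed are shown with the same marks, to which TGANTCA, the AP-1 motif, and TTGCNNAA, the C/EBP motif, were added. These motifs were held by 7.81% and 10.8% of all windows.
Il17rc, chr6:113471205-113471504, plus strand: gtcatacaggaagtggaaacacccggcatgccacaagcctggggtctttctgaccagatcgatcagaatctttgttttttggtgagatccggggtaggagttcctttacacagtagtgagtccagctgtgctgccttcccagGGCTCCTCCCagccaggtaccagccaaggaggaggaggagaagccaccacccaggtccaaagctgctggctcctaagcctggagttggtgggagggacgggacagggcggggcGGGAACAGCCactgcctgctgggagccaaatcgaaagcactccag
Il22ra1, chr4:135727909-135728208, plus strand: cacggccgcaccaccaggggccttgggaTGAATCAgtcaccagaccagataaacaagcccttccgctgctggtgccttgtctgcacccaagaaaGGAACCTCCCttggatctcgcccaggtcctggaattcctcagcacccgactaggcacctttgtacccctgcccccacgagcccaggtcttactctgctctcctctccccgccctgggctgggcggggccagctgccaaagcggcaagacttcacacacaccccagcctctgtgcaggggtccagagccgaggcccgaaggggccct
The Il17rc window holds the NF-kB motif at 2 places and the Il22ra1 window at 1, beside an AP-1 match. The window of Il20rb, which did not pass the test, also holds an NF-kB match, 107 bases before the start, and a C/EBP match. The table had windows for 7 of the 10 genes, with none for Il23a, Il24 and Il17ra.

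Other chains of the same receptors moved both ways. Il22ra2, whose secreted product binds and neutralises IL-22, read 35.6, 51.4 and 65.3 in HdR and 20.4, 25.5 and 21.9 in WT, without overlap, and rose (change 1.10, SE 0.23, limma adjusted p = 0.0141). Il10rb, the partner chain of IL22RA1, read 72.4, 84.7 and 77.4 in HdR and 39.9, 56.4 and 34.95 in WT and also rose (change 0.85, SE 0.20, limma adjusted p = 0.0177). The IL-22 receptor gene Il22ra1 fell while the genes of its partner chain and of the decoy receptor rose, though Il10rb was not called with total scaling (change 0.53, limma adjusted p = 0.0530). Per kb of transcript, Il22ra2 stood at 2.71, 5.23 and 4.28 times the level of Il22ra1 in HdR replicates 1, 2 and 3 and at 0.974, 1.11 and 0.670 times in WT, a ratio chosen after the values were seen. Il22ra2 and Il10rb changed by 1.09 and 0.92 with the length trend removed (limma adjusted p = 0.0194 and 0.0193).

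Il17rd, a receptor-like gene of the IL-17 receptor family, fell (3.56 ± 0.566 in HdR and 8.41 ± 1.52 in WT, change -1.04, limma adjusted p = 0.0127). On its transcript of 8.28 kb the change was -0.50 with the length trend removed and did not pass (limma adjusted p = 0.0890). Il17re, the receptor chain for IL-17C, read 4.37 ± 0.978 in HdR and 6.70 ± 1.81 in WT (change -0.51, limma adjusted p = 0.129), and Il17rb, the chain for IL-25, 5.51 ± 0.298 in HdR and 6.91 ± 1.43 in WT (limma adjusted p = 0.303). Il20ra, the partner of IL20RB, read 15.8 ± 1.90 in HdR and 15.2 ± 3.09 in WT (change 0.06, 95% interval -0.38 to 0.49, limma adjusted p = 0.825), and its sign turned with total scaling and with the length trend removed. Il10ra (18.1 ± 4.16 in HdR and 21.97 ± 4.95 in WT) and the IL-23 receptor partner Il12rb1 (1.23 ± 0.348 in HdR and 1.63 ± 0.676 in WT) did not pass. In all, 2 of 8 tested chains rose and 1 fell, with a median change of -0.24 beside -0.13 for all tested genes. These calls are 37.5% of the tested chains, beside 30.6% of all tested genes. Without HdR replicate 2 or WT replicate 3, 1 rose, without WT replicate 1 limma called 0 (3 at an unadjusted p under 0.05), and without WT replicate 2 there were 2 that fell.

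Per kb of longest transcript the receptors kept the same order in both genotypes. Il20rb averaged 30.8 ± 4.56 bases per Mb per kb in HdR and 38.5 ± 6.07 in WT, above Il17rc at 12.2 ± 3.86 in HdR and 25.1 ± 6.24 in WT. Il22ra1 followed with 5.10 ± 1.09 in HdR and 10.2 ± 2.50 in WT, and Il17ra with 1.49 ± 0.375 in HdR and 2.36 ± 0.267 in WT. Neighbours in this order did not overlap within a genotype. Il19, at 3.45 ± 3.38 per kb in HdR and 0.597 ± 0.159 in WT, overlapped Il22ra1 and Il17ra in HdR and lay below Il17ra in WT. Among the low cytokine genes Il23a averaged 0.834 ± 0.311 per kb in HdR and 0.0663 ± 0.0211 in WT, and Il17f 0.512 ± 0.431 in HdR and 0.162 ± 0.0691 in WT. Il17a, Il22 and Il24 stood at 0.256, 0.157 and 0.125 in HdR and at 0.104, 0 and 0.0225 in WT. In HdR the Il17f values overlap those of Il23a, Il17a and Il22, and the Il22 values overlap those of Il24, so the order of these neighbours is not resolved. In WT Il23a lay within the range of Il17a.

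Among the signal relays behind these receptors, calls depended on whether the length trend was removed. Of 15 adaptors and regulators of IL-17 receptor signalling 1 rose and 4 fell (median -0.28), against 3 higher and 1 lower once the length trend was removed. The main fit thus called 33.3% of them, beside 30.6% of all tested genes. Cebpd, a transcription factor gene that IL-17 induces, read 128, 281 and 169 in HdR and 53.1, 45.5 and 32.5 in WT (change 2.06, SE 0.29, limma adjusted p = 0.00571). The genes that fell were the kinase gene Ikbke (-0.98), the adaptor genes Traf3 (-1.02) and Traf6 (-0.68) and the deubiquitinase gene Usp25 (-0.86). Their longest transcripts ran from 4.78 to 7.06 kb, and with the length trend removed only Ikbke of these 4 was called (change -0.53, limma adjusted p = 0.0410). Traf3ip2, the gene of the adaptor Act1, read 17.0 ± 1.70 in HdR and 20.8 ± 1.10 in WT (limma adjusted p = 0.192), and Nfkbiz, the IkB zeta gene induced by IL-17, 93.2 ± 16.5 in HdR and 69.8 ± 17.8 in WT (limma adjusted p = 0.152). Nfkbiz passed with the replicate block (limma adjusted p = 0.0432) and, at a change of 0.73, with the length trend removed (limma adjusted p = 0.0277). Tnfaip3, the gene of the ubiquitin-editing enzyme A20, did not pass (change 0.59, limma adjusted p = 0.160) but did with the length trend removed (change 1.06, limma adjusted p = 0.0311). Traf3ip2, Nfkbiz and Tnfaip3 were named after their values were seen. Among 6 genes of the JAK and STAT3 relay, which carries IL-22 and IL-23 signals, Jak1 (-0.69) and Tyk2 (-0.65) fell (median -0.31). Neither was called with the length trend removed (limma adjusted p = 0.130 and 0.265). The main fit called 33.3% of the relay genes, beside 30.6% of all tested genes. Jak2 (-0.56, limma adjusted p = 0.0854), Stat3 (-0.06, limma adjusted p = 0.810) and Socs3 (0.60, limma adjusted p = 0.0933) did not pass, and with the replicate block Jak2 and Socs3 did (limma adjusted p = 0.0388 and 0.0361). The sign of Stat3 turned with median-of-ratios scaling and with the length trend removed. Without WT replicate 1 limma called 1 adaptor gene, which rose, and 0 relay genes (3 at an unadjusted p under 0.05). Without WT replicate 3 or HdR replicate 2 there were 1 and 2 adaptor genes that fell and 0 relay genes (2 and 4 at an unadjusted p under 0.05), and without HdR replicate 1 or HdR replicate 3 there was 1 relay gene that fell.

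Genes known to be raised in keratinocytes by IL-17 and IL-22 rose in more cases than they fell. Of the tested ones 59.1% passed the test, beside 30.6% of all tested genes, of which 12.7% were higher and 17.9% lower. Of 24 such genes 22 were tested, 12 rose and 1 fell (median 1.40), with Csf2 and Csf3 under the filter. Cxcl3 (0.0423 to 0.120 in WT) and Cxcl5 (0.299 to 0.888 in WT) are among the 12. They reached the filter only through their HdR libraries, and 20 genes of the list were tested without any 1 of these. The median was 0.87 with the length trend removed, where 11 rose, and 0.78 without HdR replicate 2. The stress keratin genes Krt6a, Krt6b, Krt16 and Krt17 did not pass (changes -0.17, -0.26, 0.25 and 0.06, limma adjusted p = 0.686, 0.788, 0.564 and 0.837). The signs of Krt16 and Krt17 turned with total scaling and with the length trend removed. Lcn2, Il36g, Defb4, Saa3 and Steap4 did not pass either. Of the risen genes, Defb3, Defb14, Il36a, Slpi, S100a8 and S100a9 have transcripts in the shortest 10%, of which 49.2% were called higher among all tested genes. Each was called with the length trend removed. Defb3, a beta-defensin gene, read 6.67, 14.5 and 4.88 in HdR and 0.757, 1.03 and 0.407 in WT (change 2.38, SE 0.34, limma adjusted p = 0.00582). Slpi, an antiprotease gene, stood at 99.5 ± 20.5 in HdR and 39.5 ± 6.87 in WT (change 1.31), and the chemokine gene Cxcl2 at 31.4 ± 5.43 in HdR and 4.80 ± 4.63 in WT (change 2.75). S100a8 and S100a9, the calprotectin genes, were higher by 3.07 and 2.99. HdR replicate 2 held 1421 and 1708 of them, far above the 244 to 531 in the remaining HdR libraries. They are also neutrophil markers and are among the 5 of 7 tested neutrophil markers that rose, led by Retnlg (change 2.62). Cxcr2 and Mmp8 also rose, and Mmp9 and Csf3r did not pass. The sums of that list, mostly S100a8 and S100a9, ran from 701 to 3188 in HdR and from 145 to 200 in WT. S100a7a, another S100 gene, fell (2.72 ± 2.39 in HdR and 8.40 ± 3.14 in WT, limma adjusted p = 0.0295). Without WT replicate 1 or HdR replicate 2 the list held 7 risen genes and without WT replicate 3, or without a filter, it held 8. S100a7a was not called without HdR replicate 1, HdR replicate 3 or any WT library. Ly6g, the defining neutrophil marker, was under the filter at 0.557 ± 0.231 in HdR and 0.156 ± 0.166 in WT, and the part of neutrophils in these values was not tested.

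**Figure D4:**
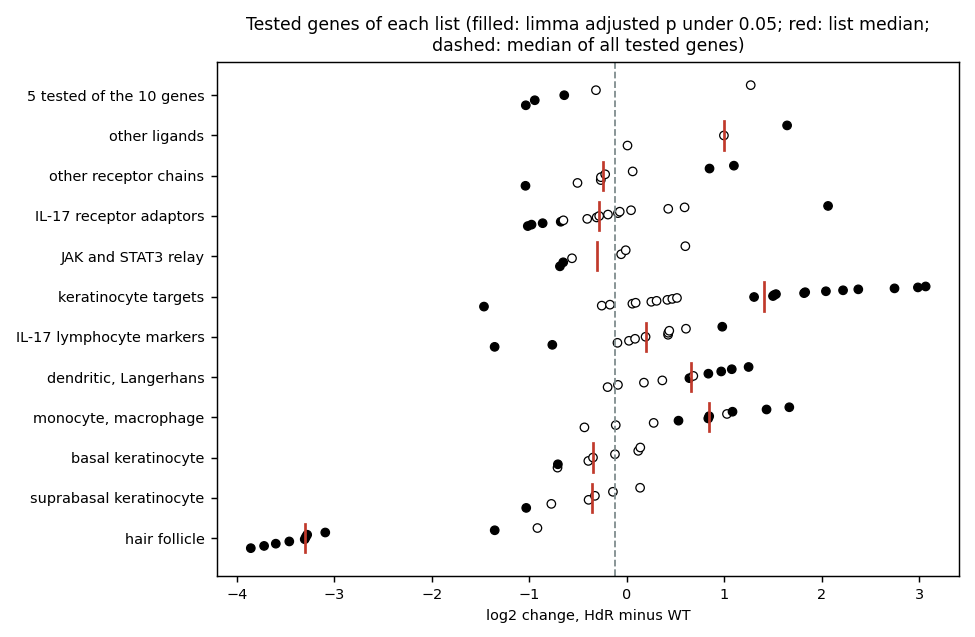
Log2 change, HdR minus WT (horizontal axis), of each tested gene by list, filled where the limma adjusted p is under 0.05, with red lines for list medians and a dashed line for the median of all tested genes at -0.13. The keratinocyte target list has a median of 1.40, the adaptor and relay lists have medians of -0.28 and -0.31, and hair follicle markers lie furthest to the left, at a median of -3.30.

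Markers of the epithelium that carries the receptors were given beside the receptor values. Over all tested genes 17.9% were lower. Of 7 basal keratinocyte markers 1 fell, Krt14 by 0.71 (limma adjusted p = 0.0487), and of 6 suprabasal markers 1 fell, the keratin gene Krt1 by 1.03 (limma adjusted p = 0.0435). The basal sums ran from 4441 to 5256 in HdR and from 6166 to 7187 in WT, and the suprabasal sums from 5733 to 6767 in HdR and from 7047 to 7967 in WT. Hair follicle markers fell in 9 of 10 cases, led by the hair shaft keratin gene Krt35 (1.91 ± 0.573 in HdR and 34.1 ± 4.73 in WT), with sums from 36.8 to 143 in HdR and from 592 to 904 in WT. No marker of these lists was at 0 in all libraries. Krt14 was not called when any 1 library was left out, and Krt1 was called then only without HdR replicate 1. With the length trend removed Krt1 was not called (limma adjusted p = 0.0819). The part of a changed share of follicle or keratinocyte RNA in the lower receptor coverage was not tested.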

How the data were processed

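RNA sequencing of ear skin gave 3 HdR and 3 WT libraries. The deposited table holds coverage, a signal of aligned bases summed per gene symbol by the authors, a unit read from the values. These gather at multiples of 300, a pair of 150-base reads (10.2% of values below 10 pairs, against 0.333% by chance), so they are not read counts. The build is GRCm38, per the submitters' processing notes, while aligner, counting program, strandedness and annotation were not given in the sources used here.

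Scaling between libraries used trimmed means of M values (30% and 5% trimmed). Genes that reached 1 base per Mb in 3 libraries entered a two-sided robust limma-trend fit of HdR against WT on log2(value + 1), with limma 3.58.1 under R 4.3.3 and Benjamini-Hochberg adjustment over all genes. The 10 genes and the gene lists were chosen with earlier results of these data known. Named were all 10 genes, all other ligands and receptor chains, the 5 smallest p of each other pathway list, the smallest p of each cell type list, and movers where 5 or fewer moved. Some list genes that did not pass were named as well, after their values were seen. Lengths are longest transcripts of GENCODE M21 on GRCm38 (99.0% of tested genes), and a spline of log2 length with 4 degrees of freedom was removed per library as an alternative. Il36a and Il36g were matched by synonym as Il1f6 and Il1f9. Depth limits the low cytokine genes to a few read pairs.

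HdR and WT libraries of the same number deviated together from their genotype means (r = 0.163, 0.416 and 0.366 for numbers 1 to 3). With WT libraries of other numbers, the highest r of HdR replicates 1, 2 and 3 was 0.0976, -0.241 and 0.159. The labels do not say that the numbers pair libraries. The main fit did not use them, and the replicate block, which takes them to pair libraries, was an alternative. Further alternatives tried total, quantile and median-of-ratios scaling, other filters, a pseudocount of 0.1 and each library left out.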

Additional observations from a re-analysis of the deposited data

How the results depend on the processing

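Over all genes 1904 were higher and 2701 lower. Higher and lower counts were 917 and 4305 with total scaling and 1017 and 1127 without a filter, 4094 were lower with the replicate block, and 1275 were lower with the length trend removed. Leaving out 1 library gave 197 to 2657 higher and 230 to 3359 lower. Among the 10 genes, 0 higher and 3 lower became 1 higher without a filter, with a pseudocount of 0.1, with the replicate block, at a filter of 0.5 bases per Mb, and without a filter but with the length trend removed. Lower calls were 0 without a filter and 0 to 3 with 1 library left out. In the pathway lists together 16 were higher and 8 lower. The lower count was 5 with quantile normalisation, 2 without a filter, 2 with the length trend removed, 3 with that and the replicate block, and 3 without a filter but with the length trend removed. With 1 library left out it was 0 to 9, and the higher count was 8 to 17. In the cell type lists together 22 were higher and 18 lower, the lower count being 29 with total scaling and 10 without a filter. Leaving out 1 library gave 10 to 24 higher and 10 to 24 lower. The cause of these shifts was not tested, and a fit with 1 library left out also holds fewer libraries.

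Signs turned for several genes. Those of Itgax and Xcr1 turned with the length trend removed, and those of Krt16 and Krt17 with that and with total scaling. Il17d, Il20ra and Stat3 also turned and passed in no setting. Il17d was -0.24 with total scaling, -0.39 with the length trend removed, with or without the replicate block, and -0.23 with that and no filter. Il20ra was -0.24, -0.065 and -0.049 in the same settings. Stat3 was 0.00485 with median-of-ratios scaling, 0.40 with the length trend removed, with or without the replicate block, and 0.30 with that and no filter. Leaving out 1 library gave -0.069 to 0.077 for Il17d, -0.037 to 0.22 for Il20ra and -0.16 to 0.069 for Stat3. Of the single list genes named in the report, the block changed the calls of Il19, Il12b, Nfkbiz, Jak2, Socs3, Cd3d, Myh4 and Ttn.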

Other observations

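Next to Il23a on chromosome 10 lie Stat2, an interferon signalling gene, and Pan2, an mRNA deadenylase gene. Both fell. Stat2 stood at 68.4 ± 2.67 in HdR and 163 ± 9.37 in WT (change -1.24, limma adjusted p = 0.00283), and Pan2 at 14.98 ± 3.47 in HdR and 27.8 ± 7.77 in WT (change -0.83, limma adjusted p = 0.0344). Beside Il17f, the progestin receptor family gene Paqr8 fell (change -0.85, limma adjusted p = 0.0213) and the replication gene Mcm3 did not pass (change -0.37, limma adjusted p = 0.108). These neighbours were chosen by position, and the fits with a library left out do not cover them.

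Other tissues of the ear also differed, where 12.7% of all tested genes were higher and 17.9% lower. Of 4 adipocyte markers 3 rose (Fabp4, Adipoq and Lep, by 2.23, 1.74 and 1.18), of 5 skeletal muscle markers 2 rose (Tnnt3 and Ckm, by 1.12 and 1.04) while Myh4, Ttn and Acta1 changed by -0.99, -0.93 and -0.16, of 6 fibroblast markers 2 fell (Col1a1 and Col1a2, by 1.90 and 0.94), of 5 endothelial markers 2 fell (Tie1 and Cdh5, by 1.02 and 0.64), and of 5 cartilage markers Col9a1 fell by 0.72. With the replicate block Myh4 and Ttn were called lower (limma adjusted p = 0.00151 and 0.0357). With the length trend removed Tnnt3, Col1a2, Cdh5 and Col9a1 were not called (limma adjusted p = 0.0785, 0.243, 0.126 and 0.115). Of these lists, the adipocyte count of 3 stayed 3 with each library left out, the muscle count was 0 to 2, and the fibroblast, endothelial and cartilage counts of lower genes were 1 to 2, 0 to 2 and 0 to 4.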
